A study of Arabidopsis thaliana with 6 samples.

Results

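The SAUR19 to SAUR29 genes are a clade of small auxin up RNA genes that act in cell expansion, and 10 of them are described here in seedlings of the Arabidopsis thaliana mutant cog1-2D and of the wild type. The members were taken by their gene identifiers: SAUR19 to SAUR24 on chromosome 5 and SAUR26 to SAUR29 on chromosome 3. They are 10 of the 33617 genes in the deposited table. Of these 10, 5 had at least 60 fragments summed over the 6 libraries and are called measured: SAUR21, SAUR23, SAUR24, SAUR26 and SAUR27. The other 5 (SAUR19, AT5G18010; SAUR20, AT5G18020; SAUR22, AT5G18050; SAUR28, AT3G03830; and SAUR29, AT3G03820) had at most 1 fragment each and are unmeasured. The member with the fewest fragments above the limit was SAUR23 with 342, and the member with the most below it had 1. The clade was chosen with its difference between cog1-2D and wild type already known, so its levels and fold changes are a description and carry no test.

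The cog1-2D plants carry the activation tagging allele cog1-2D, in which inserted enhancers drive the gene COG1, and the wild type (wt) is Col-0, the standard laboratory accession. COG1 encodes a Dof transcription factor known for damping responses to red and far-red light. Each genotype had 3 libraries, numbered 0, 1 and 2, of untreated whole seedlings of 7 days, grown under long days on MS medium at 23 °C. The mutant is represented by 1 line. Nothing in the labels says whether the libraries of a genotype came from separate cultures or seed lots, so p-values measure the spread between these libraries, which may be technical.

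Many SAUR genes respond to auxin within minutes, have no introns and encode short-lived proteins. SAUR19 and its relatives bind and inhibit PP2C-D phosphatases, which otherwise remove the activating phosphate from plasma membrane H+-ATPases. With the phosphatases held back, the pumps acidify the cell wall, expansins and other wall proteins loosen it, and the cell takes up water and elongates. In hypocotyls the clade is induced by auxin, by PIF transcription factors in shade and warmth, and by brassinosteroid.

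The sequence upstream of each measured member is shown because these genes were higher together in cog1-2D, and because the clade's known regulators bind short motifs in this part of the locus. Each window is the 300 bases before the annotated transcript start on the plus strand, from the RefSeq TAIR10.1 assembly, whose annotation places no gene in any of the 5 windows. Capitals mark CACATG or its reverse complement CATGTG, known as the PBE-box and bound by PIF factors. The windows lie at chr5:5968052-5968351 for SAUR21, chr5:5975480-5975779 for SAUR23, chr5:5983383-5983682 for SAUR24, chr3:982757-983056 for SAUR26 and chr3:980772-981071 for SAUR27.
SAUR21: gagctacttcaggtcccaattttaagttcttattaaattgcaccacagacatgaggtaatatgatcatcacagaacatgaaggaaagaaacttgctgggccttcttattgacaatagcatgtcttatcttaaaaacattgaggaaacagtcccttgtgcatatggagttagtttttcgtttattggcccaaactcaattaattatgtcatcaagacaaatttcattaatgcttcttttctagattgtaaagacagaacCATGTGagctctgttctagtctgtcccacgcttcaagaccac
SAUR23: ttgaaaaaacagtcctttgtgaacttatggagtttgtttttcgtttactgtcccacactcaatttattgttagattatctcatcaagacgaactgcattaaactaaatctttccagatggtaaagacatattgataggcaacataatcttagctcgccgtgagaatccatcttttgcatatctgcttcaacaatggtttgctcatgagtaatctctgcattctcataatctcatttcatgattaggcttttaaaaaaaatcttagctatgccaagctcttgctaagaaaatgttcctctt
SAUR24: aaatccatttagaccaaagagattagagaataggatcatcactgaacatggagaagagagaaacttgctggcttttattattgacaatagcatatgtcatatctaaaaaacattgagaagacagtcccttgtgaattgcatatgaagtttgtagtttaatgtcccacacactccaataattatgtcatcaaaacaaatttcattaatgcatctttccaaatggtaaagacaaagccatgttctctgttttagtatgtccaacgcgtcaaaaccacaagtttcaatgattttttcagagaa
SAUR26: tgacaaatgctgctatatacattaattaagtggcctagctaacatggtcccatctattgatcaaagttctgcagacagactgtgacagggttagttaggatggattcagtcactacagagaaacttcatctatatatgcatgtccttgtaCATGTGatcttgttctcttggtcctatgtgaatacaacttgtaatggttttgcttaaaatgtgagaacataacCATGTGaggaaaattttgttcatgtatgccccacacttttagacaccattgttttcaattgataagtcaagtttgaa
SAUR27: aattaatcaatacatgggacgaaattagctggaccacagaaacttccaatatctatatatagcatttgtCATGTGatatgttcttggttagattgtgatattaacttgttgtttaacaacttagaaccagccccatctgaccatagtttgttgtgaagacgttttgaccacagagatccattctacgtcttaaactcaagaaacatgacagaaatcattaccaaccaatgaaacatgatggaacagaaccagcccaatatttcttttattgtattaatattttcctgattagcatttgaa
The windows were searched on both strands for 5 motifs: the G-box CACGTG, the PBE-box, the auxin response element TGTCTC, a variant of that element written TGTCGG, and the Dof core AAAG. A reverse complement counted as well: GAGACA for the element, CCGACA for its variant, and CTTT for the Dof core. The PBE-box stood in 3 of the 5 measured members, once in SAUR21 and SAUR27 and at 2 places in SAUR26, and in 13.1% of the 27437 promoters of the same length in the genome. The G-box, which 7.09% of promoters hold, was in 0 of the 5 windows. The auxin response element was in 0 of 5 and in 13.0% of promoters, and its variant in 0 of 5 and in 4.91%. Every window held the Dof core, which 99.0% of promoters hold, at a median of 5 places per promoter. It occurred at 3 places in SAUR21, 5 in SAUR23, 5 in SAUR24, 2 in SAUR26 and 1 in SAUR27, so these windows held no more than the typical promoter. No motif match overlapped another. In the windows of the 5 unmeasured members, the PBE-box was in 4, the auxin response element in 2, its variant in 1 and the G-box in 0. A match is a run of letters and not evidence of binding. SAUR26, with 2 PBE-boxes, had a log2 fold change of 0.38 in cog1-2D over wt. SAUR21 and SAUR27, with 1 each, were at 1.19 and 1.66. SAUR23 and SAUR24, with 0, were at 1.80 and 1.25. A link between the box and the fold changes was not tested.

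Aligned end to end, the windows of SAUR21 and SAUR24 were 67.3% identical, counting gaps as differences, and the other 9 pairs of measured members 44.6 to 50.8%. The longest run shared by SAUR21 and SAUR24 was 17 bases, acaaatttcattaatgc, which 2 of 27443 promoters hold. SAUR21, SAUR23 and SAUR24 shared gtaaagaca, which 0.383% of promoters hold, and SAUR26 and SAUR27 shared atctatatat, which 0.951% hold.

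The coding sequences, aligned in the same way, bear on how fragments can be assigned. Within the chromosome 5 cluster, coding identity between members was 87.7 to 95.2% over 15 pairs, and within the chromosome 3 cluster it was 77.7 to 86.3% over 6 pairs. Between the clusters it was 74.6 to 79.9% over 24 pairs. SAUR21 and SAUR24, the pair with the most similar windows among the measured members, shared 92.7% of their coding bases and an unbroken run of 65 bases, at coding positions 61 to 125 of SAUR21 and 67 to 131 of SAUR24.
Run shared by SAUR21 and SAUR24: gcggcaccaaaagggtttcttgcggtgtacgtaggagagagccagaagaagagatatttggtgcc
Windows of 50 bases that recur elsewhere in the genome made up 5.19% of the SAUR21 transcript, 2.63% of SAUR23 and 7.11% of SAUR24, against 0% of SAUR26 and SAUR27. No window of 100 bases recurred for any member. How fragments with several matches were counted is not given in the sources used here, so the split of fragments among the chromosome 5 members is uncertain to that extent.

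SAUR26 and SAUR27 are shown base by base because they are close neighbours with different fold changes. Their coding sequences, SAUR26 at chr3:983197-983478 and SAUR27 at chr3:981258-981545, both on the plus strand, were 82.3% identical. Capitals mark bases that differ from the aligned base of the other gene or face a gap.
SAUR26: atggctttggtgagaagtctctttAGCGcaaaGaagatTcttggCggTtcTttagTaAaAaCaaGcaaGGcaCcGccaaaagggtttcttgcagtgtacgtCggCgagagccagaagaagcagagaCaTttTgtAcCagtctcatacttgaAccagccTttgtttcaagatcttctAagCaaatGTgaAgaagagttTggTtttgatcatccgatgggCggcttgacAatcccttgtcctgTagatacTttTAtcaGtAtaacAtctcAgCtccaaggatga
SAUR27: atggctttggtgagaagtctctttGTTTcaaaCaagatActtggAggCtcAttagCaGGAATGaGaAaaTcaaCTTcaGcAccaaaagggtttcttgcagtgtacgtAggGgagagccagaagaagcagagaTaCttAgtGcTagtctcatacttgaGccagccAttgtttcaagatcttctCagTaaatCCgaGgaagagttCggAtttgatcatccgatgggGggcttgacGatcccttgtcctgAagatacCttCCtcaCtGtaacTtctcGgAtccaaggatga
The differences were scattered along both sequences, and neither gene had a 50-base window found elsewhere in the genome.

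Whether a member was measured followed its strand. All 5 measured members are annotated on the plus strand and all 5 unmeasured members on the minus strand. SAUR19, SAUR28 and SAUR29 had 1 fragment each over the 6 libraries, and SAUR20 and SAUR22 had 0. Each cluster holds members on both strands, so a measured and an unmeasured member can share an upstream region: SAUR28 and SAUR27 start 509 bp apart and point away from each other, and SAUR22 and SAUR23 do so over 692 bp. The PBE-box upstream of SAUR27 is the same 6 bases as one upstream of SAUR28. The strand split ran through the whole table. The 13777 coding genes on the plus strand had a median of 985 fragments over the 6 libraries and 72.0% of them had 60 or more, while for the 13666 minus-strand coding genes the median was 1 and 1.16% had 60 or more. The counts of minus-strand members therefore say nothing on whether those genes were expressed. SAUR25, which carries a number of the clade but lies apart on chromosome 4 and shares 64.5 to 68.1% of its coding bases with the members, is also a minus-strand gene and had 0 fragments.

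The libraries held 10575945 to 11044670 fragments in cog1-2D and 10686555 to 11202122 in wt. COG1 itself is a minus-strand gene, with 0, 3 and 3 fragments in cog1-2D and 0 in every wt library, so the labels could not be checked through it. Of the fragments on nuclear coding genes, 0.139 to 0.154% lay on minus-strand genes in the cog1-2D libraries. In wt replicates 0, 1 and 2 this share was 0.169, 0.0301 and 0.168%. Replicate 1 of wt also had fewer genes above 0 (13123) than wt replicates 0 and 2 (16433 and 16166). All measured members lie on the plus strand, and whether this difference between wt libraries reached their counts was not tested.

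All 5 measured members were higher in each cog1-2D library than in every wt library. Of the 10347 genes tested across the genome, 24.3% showed the same separation, and since the members were chosen on this contrast nothing is read from the comparison. Sums over the 6 libraries ran from 342 fragments for SAUR23 to 1216 for SAUR21. Levels are given in FPKM, the authors' fragments scaled by transcript length and library size, which allow levels to be compared between genes. Fold changes are log2 values of cog1-2D over wt from edgeR on the fragment counts, with their standard errors (SE).

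SAUR27 (AT3G03840, chr3:981072-981801) had 40.4, 46.3 and 34.8 FPKM in the 3 cog1-2D libraries, against 11.9, 15.9 and 10.2 FPKM in the 3 wt libraries. The lowest cog1-2D library was above the highest wt library by a wide margin. Its mean was 40.5 ± 5.8 FPKM in cog1-2D and 12.6 ± 2.9 FPKM in wt (SD, n = 3 each), a log2 fold change of 1.66 ± 0.17 (SE), or 3.17-fold. The counts behind it were 230, 258 and 203 fragments in cog1-2D, against 74, 89 and 58 in wt.

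SAUR23 (AT5G18060, chr5:5975780-5976589) had the lowest mean level of the measured members, and its fold change and that of SAUR27 were the largest and differed by less than their SE. It had 10.8, 16.7 and 12.9 FPKM in cog1-2D, against 2.93, 3.71 and 4.86 FPKM in wt. The mean was 13.5 ± 3.0 FPKM in cog1-2D and 3.84 ± 0.97 FPKM in wt (SD, n = 3 each), a log2 fold change of 1.80 ± 0.24 (SE), or 3.48-fold. The groups did not overlap, but the wt values rested on only 21, 24 and 32 fragments, against 71, 107 and 87 in cog1-2D.

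SAUR21 (AT5G18030, chr5:5968352-5969190) and SAUR24 (AT5G18080, chr5:5983683-5984308) lie in the same cluster and had like levels. SAUR21 had 41.0, 45.2 and 36.1 FPKM in cog1-2D, against 20.5, 17.7 and 14.7 FPKM in wt. Its means were 40.8 ± 4.5 FPKM in cog1-2D and 17.6 ± 2.9 FPKM in wt (SD, n = 3 each), with a log2 fold change of 1.19 ± 0.14 (SE), or 2.28-fold. Every cog1-2D library of SAUR21 was above every wt library. SAUR24 had 40.8, 53.8 and 37.1 FPKM in cog1-2D, against 23.3, 16.6 and 14.2 FPKM in wt. Its means were 43.9 ± 8.8 FPKM in cog1-2D and 18.0 ± 4.7 FPKM in wt (SD, n = 3 each), with a log2 fold change of 1.25 ± 0.20 (SE), or 2.38-fold. SAUR24 varied more between libraries than SAUR21 in both genotypes, and its groups did not overlap either.

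SAUR26 (AT3G03850, chr3:983057-983768) stood apart with the smallest difference. It had 16.4, 17.1 and 13.5 FPKM in cog1-2D, against 11.8, 12.7 and 11.1 FPKM in wt. The lowest cog1-2D library was only just above the highest wt library. Its means were 15.7 ± 1.9 FPKM in cog1-2D and 11.9 ± 0.83 FPKM in wt (SD, n = 3 each), a log2 fold change of 0.38 ± 0.14 (SE), or 1.3-fold. It rested on 90, 92 and 76 fragments in cog1-2D, against 71, 69 and 61 in wt.

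**Figure D1:**
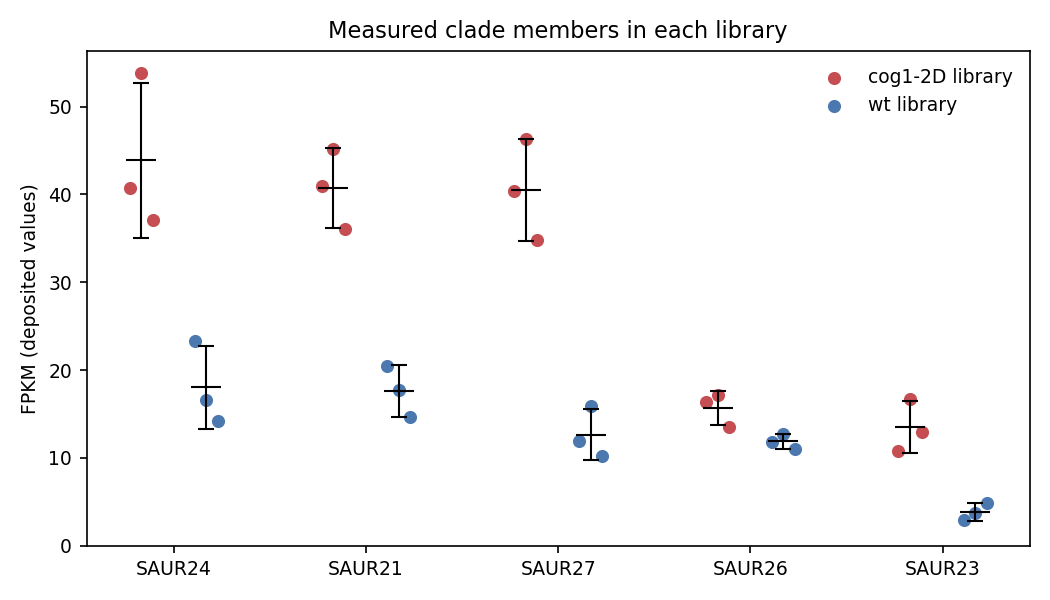
FPKM (vertical axis) of the 5 measured members in each of the 3 cog1-2D and 3 wt libraries, with black bars for the mean and SD of each genotype. SAUR27 averaged 40.5 FPKM in cog1-2D and 12.6 FPKM in wt, while SAUR26 averaged 15.7 FPKM in cog1-2D and 11.9 FPKM in wt.

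The median log2 fold change of the 5 measured members was 1.25, beside 0.00279 over all 10347 tested genes. A log2 fold change of at least 1 was found in 4 of the 5 and in 2.87% of tested genes. Fold changes as large as that of SAUR23 or larger occurred in 1.14% of tested genes, and for SAUR26 the share was 12.0%. The authors' deposited table of differing genes holds 3124 of the 33617 genes, or 9.29%. The 33617 include 13410 genes at 0 in every library. Among the 10347 tested genes, the edgeR test described below called 36.3% in either direction. The authors list SAUR23 (log2 1.81), SAUR27 (log2 1.68), SAUR24 (log2 1.28) and SAUR21 (log2 1.21) as higher in cog1-2D, but not SAUR26. Since the members were chosen on this contrast, nothing is read from these shares.

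Within cog1-2D 1 library was the highest for each measured member. Replicate 1 was the highest cog1-2D library for 5 of the 5 measured members, and replicate 2 was the lowest for 4, the exception being SAUR23, which was lowest in replicate 0. In wt, replicate 2 was lowest for 4 of the 5, the exception again being SAUR23, while the highest library was replicate 0 for 2 members, replicate 1 for 2 and replicate 2 for 1.

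The order of the mean levels in FPKM was the same in both genotypes: SAUR24, SAUR21, SAUR27, SAUR26 and SAUR23, from high to low. Neighbours in that order mostly could not be separated beyond their spread. In cog1-2D the ranges of SAUR24, SAUR21 and SAUR27 overlapped one another, as did those of SAUR26 and SAUR23. In wt the ranges of SAUR24, SAUR21 and SAUR27 overlapped likewise, and so did those of SAUR27 and SAUR26. The step between SAUR27 and SAUR26 was therefore clear in cog1-2D (34.8 to 46.3 against 13.5 to 17.1 FPKM) and within the spread in wt (10.2 to 15.9 against 11.1 to 12.7 FPKM).

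Shares within each locus show this without any scaling between libraries. SAUR27 made up 71.2, 73.0 and 72.1% of the summed FPKM of the 2 measured chromosome 3 members in cog1-2D, against 50.2, 55.5 and 47.9% in wt. The means were 72.1 ± 0.93% in cog1-2D and 51.2 ± 3.9% in wt (SD, n = 3 each), with no overlap, and SAUR26 made up the rest. On chromosome 5 the balance among the 3 measured members was alike in both genotypes. SAUR21 held 41.8 ± 2.6% of the sum in cog1-2D and 44.6 ± 1.7% in wt (SD, n = 3 each). SAUR24 held 44.5 ± 1.8% in cog1-2D and 45.2 ± 4.1% in wt, and SAUR23 held 13.7 ± 1.8% in cog1-2D and 10.2 ± 4.1% in wt (SD, n = 3 each). The ranges of all 3 of these shares overlapped between genotypes.

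**Figure D2:**
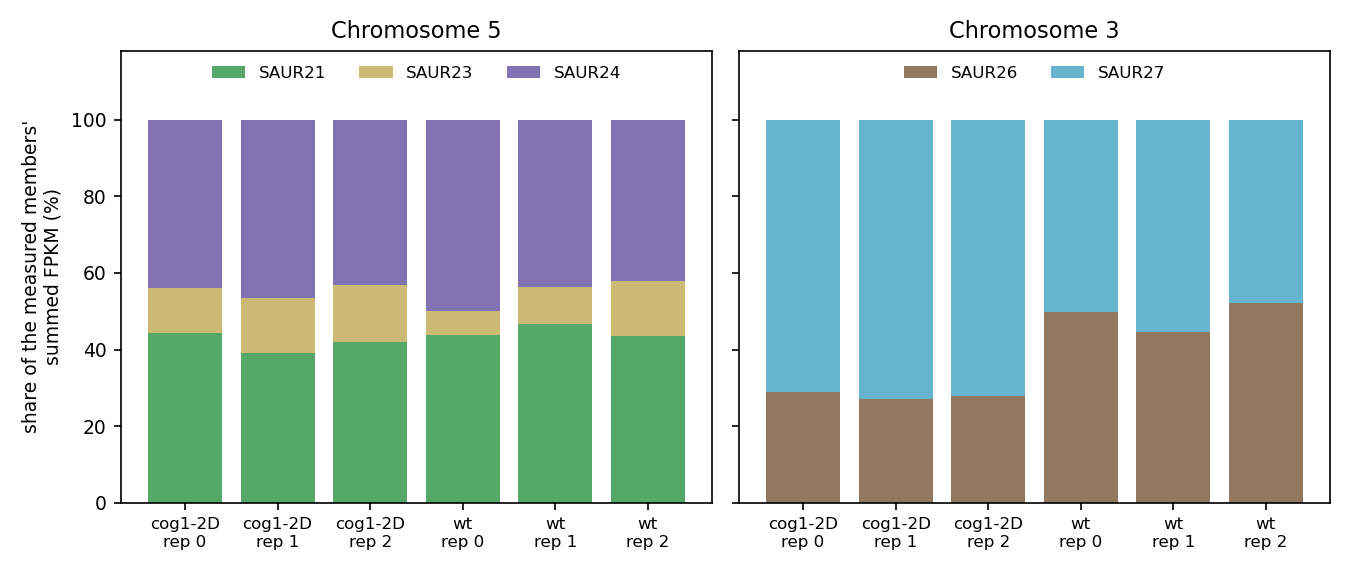
Share of each measured member in the summed FPKM of its cluster (percent, stacked bars), by library, for chromosome 5 (left) and chromosome 3 (right). SAUR27 held 71.2 to 73.0% of the chromosome 3 sum in cog1-2D and 47.9 to 55.5% in wt, while the chromosome 5 shares overlapped between genotypes.

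Sums over a cluster do not depend on how fragments are split among its measured members. They can still depend on the split with unmeasured copies. SAUR19, on the minus strand, shares windows of 50 bases with SAUR21, SAUR23 and SAUR24. The chromosome 5 cluster spans 21.536 kb, with 6 members of which 3 were measured, and had 539, 652 and 515 fragments in cog1-2D, against 291, 219 and 198 in wt. As CPM, fragments scaled by library size, this was 53.1 ± 8.2 in cog1-2D and 21.6 ± 3.4 in wt (SD, n = 3 each), or 2.46-fold. The chromosome 3 cluster spans 7.054 kb, with 4 members of which 2 were measured, and had 322, 350 and 279 fragments in cog1-2D, against 145, 158 and 119 in wt. That was 29.6 ± 4.1 CPM in cog1-2D and 12.9 ± 1.9 CPM in wt (SD, n = 3 each), or 2.29-fold. The chromosome 3 sum joins unlike members, 3.17-fold for SAUR27 and 1.3-fold for SAUR26, so its factor is not shared by both. The members were chosen on this contrast, and nothing is read from how near the factors of the clusters are.

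Genes that lie among the members or beside the clusters share their position but were not chosen with them, so they were tested with edgeR's quasi-likelihood test and Benjamini-Hochberg adjustment over all 10347 genes. Across the genome that test called 36.3% of genes, 16.3% higher and 20% lower in cog1-2D, at an adjusted p under 0.05. Of the 12 other annotated genes inside the clusters, 9 were at 0 in every library and 3 were tested. With the 3 nearest tested genes on each side of each cluster this made 15, of which 2 were higher, 4 lower and 9 did not pass. None had a log2 fold change above 0.44, beside 0.38 for SAUR26 and 1.19 to 1.80 for SAUR21, SAUR23, SAUR24 and SAUR27. The members were chosen on this contrast, and only 2.87% of all tested genes had a log2 fold change of at least 1. Nothing is therefore read from this difference.

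Between the members on chromosome 5, DRT101 (AT5G18070), a phosphoglucosamine mutase-like gene that lies just before SAUR24, was higher, at 22.1 ± 1.0 CPM in cog1-2D and 17.9 ± 0.86 CPM in wt (SD, n = 3 each). Its log2 fold change was 0.31 ± 0.08 (SE, edgeR adjusted p = 0.0180), a call lost with DESeq2 (adjusted p = 0.115) and without cog1-2D replicate 0, cog1-2D replicate 1 or wt replicate 0 (edgeR adjusted p = 0.0522, 0.0670 and 0.0518). HTT3 (AT5G18065), between SAUR23 and DRT101, had a log2 fold change of 0.44 ± 0.15 (SE, edgeR adjusted p = 0.0525), and HTT2 (AT5G18040), between SAUR21 and SAUR22, of -0.20 ± 0.09 (SE, edgeR adjusted p = 0.115). Neither passed the threshold in that test. HTT3 did pass with RLE factors (edgeR adjusted p = 0.0494), with no filter on low counts (edgeR adjusted p = 0.0259) and without wt replicate 0 (log2 fold change 0.62, edgeR adjusted p = 0.00715), so both calls between members depend on the processing.

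On the outer side of SAUR19 the tested neighbours, 2.571, 5.917 and 22.907 kb from the cluster, went the other way. All tested neighbours of both clusters lie on the plus strand, so minus-strand genes that may lie nearer were not seen. TRP1 (AT5G17990), which acts in tryptophan synthesis, was at 83.2 ± 5.2 CPM in cog1-2D and 169 ± 12 CPM in wt (SD, n = 3 each), a log2 fold change of -1.02 ± 0.07 (SE, edgeR adjusted p = 7e-06). AT5G17980 was lower too, at a log2 fold change of -1.12 ± 0.13 (SE, edgeR adjusted p = 0.000195), and ATMS1, a methionine synthase gene, at -0.26 ± 0.06 (SE, edgeR adjusted p = 0.00885). Past SAUR24, CSD3, a superoxide dismutase gene, had a log2 fold change of 0.17 ± 0.06 (SE, edgeR adjusted p = 0.0403), which did not pass with DESeq2 (adjusted p = 0.202) or with no filter on low counts (edgeR adjusted p = 0.176) or without any 1 of 5 libraries (edgeR adjusted p from 0.0767 to 0.126, the exception being wt replicate 2).

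Around the chromosome 3 cluster the tested neighbours, 8.305 to 22.659 kb from it, changed little. AT3G03773, an HSP20-like chaperone gene, was lower by a log2 fold change of -0.34 ± 0.10 (SE, edgeR adjusted p = 0.0240), a call lost with DESeq2 (adjusted p = 0.113) and without any 1 of 4 libraries (cog1-2D replicates 0 and 1, wt replicates 0 and 1, edgeR adjusted p from 0.0611 to 0.0851). The other 5 did not pass, with log2 fold changes from -0.18 for APRL5 to -0.07 for AT3G03870. SAUR73, a minus-strand gene that lies between SAUR27 and SAUR26, was at 0 in every library.

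**Figure D3:**
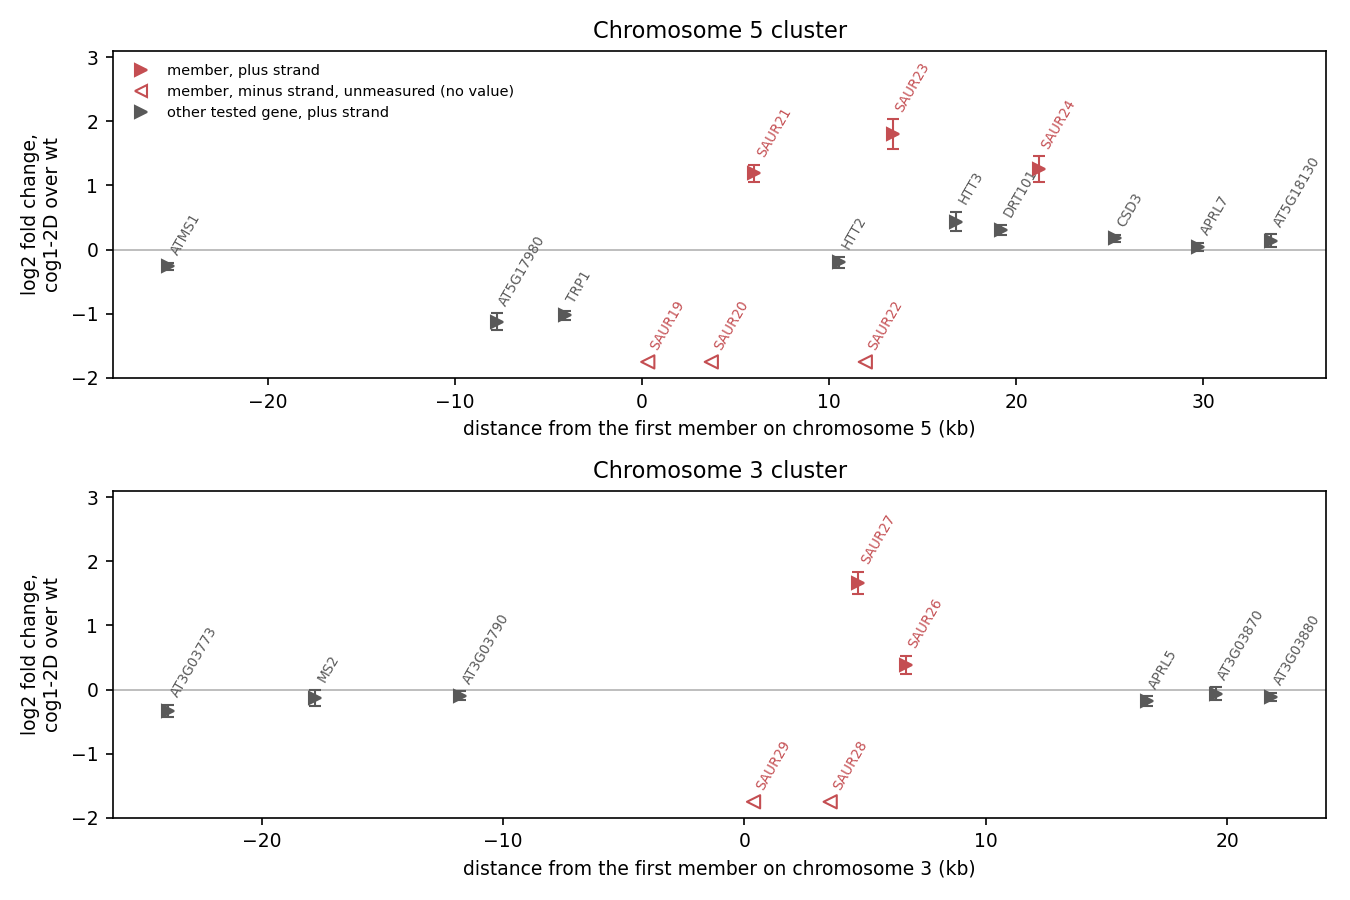
Log2 fold change of cog1-2D over wt with its SE (vertical axis) for the measured members and the tested neighbours, by distance in kb from the start of the first member, for the chromosome 5 and chromosome 3 clusters. Open symbols at the bottom mark the position of unmeasured minus-strand members and have no value. SAUR21, SAUR23, SAUR24 and SAUR27 lay at 1.19 to 1.80, above every tested neighbour, and SAUR26 lay at 0.38, below HTT3 at 0.44.

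The targets of the clade and the genes that act with it were taken from 5 lists of 74 genes, of which 40 lie on the minus strand and 33 on the plus strand were tested. Of these 33, 15 were higher in cog1-2D and 3 lower, set against the 16.3% and 20% of all tested genes given above. The lists were drawn up with earlier results of these data known.

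Among the PP2C-D phosphatases, the direct targets that SAUR proteins inhibit, 4 of 9 genes were tested, with 1 higher, 1 lower and 2 not passing. The higher one was AT5G02760, at 196 ± 35 CPM in cog1-2D and 79.0 ± 12.9 CPM in wt (SD, n = 3 each), a log2 fold change of 1.31 ± 0.15 (SE, edgeR adjusted p = 0.000145). That change lay between those of SAUR26 and SAUR23, the smallest and largest among the measured members. AT4G33920 was lower by a small amount, at a log2 fold change of -0.30 ± 0.06 (SE, edgeR adjusted p = 0.00678).

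Of the plasma membrane H+-ATPases, the proton pumps at the end of the pathway, 7 of 11 genes lie on the plus strand and were tested, with 2 higher, 0 lower and 5 not passing. HA2, on the minus strand, passed the filter with 97 fragments over the 6 libraries and is left out of these counts. HA8 had a log2 fold change of 0.46 ± 0.09 (SE, edgeR adjusted p = 0.00320) and HA11 of 0.31 ± 0.06 (SE, edgeR adjusted p = 0.00303). HA1, a main pump gene of seedlings, was at 1129 ± 21 CPM in cog1-2D and 1157 ± 32 CPM in wt (SD, n = 3 each), with a log2 fold change of -0.04 that did not pass. The changes of HA8 and HA11 were smaller than those of SAUR21, SAUR23, SAUR24 and SAUR27 and near that of SAUR26. Of the expansins, which loosen the wall, 3 of 9 genes were tested, and EXPA10 alone passed, at a log2 fold change of 0.27 ± 0.06 (SE, edgeR adjusted p = 0.00959). That call was lost in limma on log2 FPKM values (adjusted p = 0.131 with a pseudocount of 1). EXPA1 and EXPB1 did not pass, at -0.07 ± 0.14 and -0.37 ± 0.15 (log2 fold change with SE, edgeR adjusted p = 0.742 and 0.0898).

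Upstream of the clade, 12 of 25 regulators of auxin, light and brassinosteroid signalling were tested, with 5 higher, 1 lower and 6 not passing. Genes of auxin synthesis were among the higher ones. YUC8, a flavin monooxygenase that makes auxin from its precursor, was at 20.3 ± 6.2 CPM in cog1-2D and 8.09 ± 0.42 CPM in wt (SD, n = 3 each), a log2 fold change of 1.33 ± 0.21 (SE, edgeR adjusted p = 0.00106). YUC9, of the same family, had a log2 fold change of 0.92 ± 0.19 (SE, edgeR adjusted p = 0.00547). TAA1, which makes that precursor, was at 0.38 ± 0.12 (SE, edgeR adjusted p = 0.0370), and lost its call in limma (adjusted p = 0.0618 with a pseudocount of 1) and without cog1-2D replicate 1 or 2 or wt replicate 1 or 2 (edgeR adjusted p = 0.102, 0.119, 0.0981 and 0.0739). PIF3, which binds the PBE-box, had a log2 fold change of 0.40 ± 0.08 (SE, edgeR adjusted p = 0.00550). PIF4 did not pass, at 0.17 ± 0.09 (SE, edgeR adjusted p = 0.159), and had more fragments than PIF3. The other PIF genes of this list lie on the minus strand and were not tested. The 1 lower regulator was PHYB, at a log2 fold change of -0.35 ± 0.06 (SE, edgeR adjusted p = 0.00258).

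Among the 5 pathway lists, the genes known to respond to auxin, shade or brassinosteroid as the clade does had the highest median. Of 20 such genes 7 were tested, and 6 were higher and 1 lower, with a median log2 fold change of 1.02. IAA29 was at 10.3 ± 1.2 CPM in cog1-2D and 2.43 ± 0.47 CPM in wt (SD, n = 3 each), a log2 fold change of 2.08 ± 0.18 (SE, edgeR adjusted p = 2.95e-05). BEE1, a transcription factor gene induced by brassinosteroid, was at a log2 fold change of 1.84 ± 0.15 (SE, edgeR adjusted p = 2.35e-05). PRE1 and IAA19 both lay between the changes of SAUR26 and SAUR21, at 1.03 ± 0.21 and 1.02 ± 0.12 (log2 fold change with SE, edgeR adjusted p = 0.00457 and 0.000209). The 1 lower gene, WES1, encodes a GH3 enzyme that conjugates auxin to amino acids, and it moved against the other 6.

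**Figure D4:**
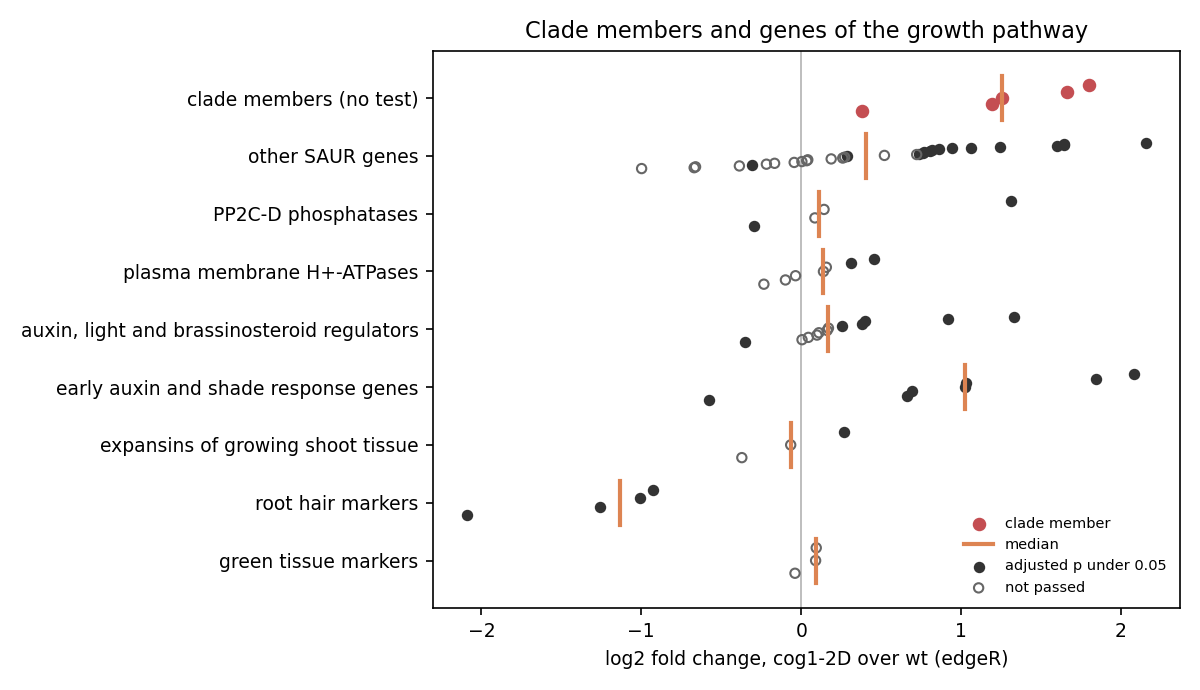
Log2 fold change of cog1-2D over wt (horizontal axis) for the 5 measured members, 30 other SAUR genes and the tested plus-strand genes of 7 lists, 1 point per gene, with filled points for an edgeR adjusted p under 0.05 and an orange line at the median of each row. The measured members had a median of 1.25, beside 1.02 for the early response genes and 0.40 for the other SAUR genes.

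The other SAUR genes of the genome, 68 by their annotated product, ranged more widely. Of these 37 lie on the plus strand and 30 were tested, with 14 higher, 1 lower and 15 not passing. Among all tested genes 16.3% were higher and 20% lower. Their median log2 fold change was 0.40, with a range from -1.0 to 2.15, the highest in AT1G29490. Among these 30 genes 5 had a log2 fold change at or above that of SAUR21. The 1 lower gene was SAUR36, at -0.31. Large increases were thus found outside the clade as well.

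Markers of 1 of the 2 cell types examined, root hairs and green tissue, differed between the genotypes. All 4 tested root hair markers of 6 were lower in cog1-2D, with a summed level of 32.0 to 35.1 CPM in cog1-2D and 68.5 to 75.0 CPM in wt. PRP1 had the largest drop, at a log2 fold change of -2.09 ± 0.19 (SE, edgeR adjusted p = 3.86e-05), and RSL4 lost its call without cog1-2D replicate 1 (edgeR adjusted p = 0.0593). SHV2, also known as COBL9, was at 0 and RHD2 at 1 fragment, both on the minus strand. Of the 8 green tissue markers 5 lie on the minus strand and could not be judged. None of the 3 on the plus strand passed, and their summed level was 39261 to 40499 CPM in cog1-2D and 32733 to 40968 CPM in wt. In whole seedlings fewer cells of a type and less RNA per cell cannot be told apart, and the part of tissue make-up in the levels of the SAUR members was not tested.

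The genes whose pattern over the 6 libraries was most like that of the clade were found from the root mean square difference of log2 CPM, each gene set to its own wt mean, from the summed measured members. The nearest was AT3G47580, a leucine-rich repeat protein kinase gene, at 0.038. It had 28.6, 31.7 and 25.3 CPM in cog1-2D, against 12.8, 12.5 and 9.98 CPM in wt, and so followed the clade in the order of the cog1-2D libraries as well. The next were AT1G72030 at 0.131, AT5G13210 at 0.133, AT4G21323 at 0.143 and AT4G18220 at 0.144. Of the members themselves SAUR21 was nearest to the sum, at 0.0756, followed by SAUR24 at 0.137, SAUR27 at 0.313, SAUR23 at 0.462 and SAUR26 at 0.635. SAUR26 was thus farther from the clade's summed pattern than any other measured member. Each member is itself part of that sum, and members with more fragments weigh more in it, so the order of these distances partly follows from that. Outside the clade, 121 genes were as close as SAUR27 or closer, 360 for SAUR23 and 967 for SAUR26.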

How the data were processed

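The members and gene lists were chosen with earlier results of these data known. RNA of whole seedlings (3 cog1-2D and 3 wt libraries) was prepared with a stranded mRNA kit, per the labels' protocols. Trimmomatic 0.36, HISAT2 2.1.0, Cufflinks 2.2.1 and Cuffdiff, with the build TAIR10, are named in the submitters' processing notes. The strand setting of the counting is not given in the sources used here. The deposited table holds the authors' estimated counts of raw fragments and their FPKM values for each gene and library. Of the fragment values, 98.1% were whole numbers within 1e-06, as all values of the members were. The authors' deposited comparison table gives log2 fold changes and q-values, of which some log2 values are printed.

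Fragment counts, rounded to whole numbers, were fitted across all genes with edgeR 4.0.16 (R 4.3.3): filterByExpr by genotype, TMM factors, the quasi-likelihood test and Benjamini-Hochberg adjustment at 0.05. This left 10347 genes, with a common biological coefficient of variation of 0.0762. The script was tested on simulated counts first. Library totals of 10575945 to 11202122 fragments set the precision. CPM values use the TMM library sizes. Members and their cluster sums were given no test, since the choice of the clade rests on this contrast.

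Genes named are the 10 members and SAUR25, genes inside the clusters, the 3 nearest tested genes on each side, up to 4 called genes with the largest change from each list (or up to 2 with the smallest p), and the 5 genes most like the clade. HA2, PIF4, PHYB, WES1, SHV2, RHD2, AT1G29490 and SAUR36 appear as exceptions or ends of a range. HA1 appears as the main pump gene, and EXPA1 and EXPB1 as the other tested expansins. Those outside the rule were chosen after their values were seen. Names come from RefSeq TAIR10.1, to which 32225 of 33617 identifiers matched. Its nuclear sequence, the same as that of TAIR10, gave the windows of 300 bases. Alternatives were RLE factors, DESeq2 1.42.0, other filters on low counts, limma 3.58.1 on log2 of FPKM plus 1 or 0.1, a fit with the replicate number as a block, and fits without each library in turn.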

Additional observations from a re-analysis of the deposited data

How the results depend on the processing

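Over all alternatives, each measured member and both cluster sums kept their direction: log2 fold changes were 1.08 to 1.32 for SAUR21, 1.58 to 2.01 for SAUR23, 1.08 to 1.49 for SAUR24, 0.31 to 0.48 for SAUR26 and 1.54 to 1.85 for SAUR27. With a minimum of 20 or 200 fragments in place of 60, the same 5 members were measured. The main test called 1686 genes higher and 2066 lower, DESeq2 called 1272 and 1702, and leaving out 1 library gave 1129 to 1488 and 1554 to 1890. The count that changed most was that of neighbours called higher: 2 in the main test, 0 with DESeq2, 3 with RLE factors, 3 with the replicate block and 0 to 2 when 1 library was left out, with the cause not tested. SAUR23 was above SAUR27 in the main test (1.80 against 1.66) but not without wt replicate 1 (1.78 against 1.85) or in limma with a pseudocount of 1 (1.58 against 1.62). Neighbours and 1 marker that did not pass changed sign when 1 library was left out: APRL7 ranged from -0.00448 to 0.0618, MS2 from -0.253 to 0.00757, AT3G03870 from -0.138 to 0.0331 and CAB1 from -0.00957 to 0.157 (log2).

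Deviations from the genotype means correlated at -0.0146, -0.0162 and 0.106 between libraries of the same number. Of the cog1-2D libraries, only replicate 2 correlated best with the wt library of its own number. Replicate 0 of cog1-2D correlated best with wt replicate 1 (0.164), and replicate 1 with wt replicate 2 (0.105). With 3 libraries per genotype, these values cannot settle whether the replicate numbers pair the libraries. With the replicate block more genes were called than in the main test, 1863 higher and 2230 lower against 1686 and 2066. HTT3 (edgeR adjusted p = 0.0209) and APRL5 (edgeR adjusted p = 0.0382) passed with the block. Depth limits SAUR23 most, with 21 to 32 fragments per wt library.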
